A study of Mus musculus with 6 samples.

Results

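Transcripts that mark macrophages were followed through an RNA immunoprecipitation experiment (RIP-seq) on cultured mouse germ stem cells, the stem cells of the male germ line grown outside the testis. The method sequences the RNA that stays bound to a protein when an antibody fishes that protein from lysed cells. The 10 transcripts are Lyz2, Cd68, C1qa, C1qb, C1qc, Fcer1g, Ccl7, Gpnmb, Wfdc17 and Ctss, taken by gene symbol from a table of 22564 genes. Each symbol was found in 1 row, and all 10 genes passed the filter on low counts. The markers were chosen by gene name as macrophage genes, with earlier results of these libraries known. Fold changes over IgG RIP were among those results, so the markers' values in that comparison are given as a description with no test. Over input, at least the level of Cd68 was known too, so the adjusted p-values given for the markers there are values of the fit across all genes and not independent evidence.

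The 6 libraries form 3 groups of 2, namely immunoprecipitates of IGF2BP1 (IGF2BP1 RIP), immunoprecipitates made with IgG (IgG RIP), and RNA taken without a pull-down (input). All came from mouse germ stem cells kept in MEM-α/StemPro-34 medium that held the growth factors GDNF and FGF2 (10 ng/ml of each), with no genetic change or other treatment named in the labels. The labels name no strain, animal age, feeder layer or macrophage, and do not say whether replicates are separate cultures. The p-values therefore reflect the spread among these libraries alone, which may be technical. Fragments on the table's genes numbered 2793425 and 2836942 in the IGF2BP1 libraries, 2558673 and 2723451 in the IgG libraries, and 1639251 and 1693165 in the input libraries. The 2 IgG libraries stood apart from each other, since the biological coefficient of variation was 7.76% between the IGF2BP1 libraries, 50.4% between the IgG libraries and 6.76% between the input libraries.

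Macrophages are phagocytes that engulf dead cells and debris, digest them in lysosomes, sense antibodies through Fc receptors, make complement proteins and call in other leukocytes with chemokines. They also live in the testis, next to the germ cells. IGF2BP1 is a cytoplasmic RNA-binding protein that binds many mRNAs and is known for protecting some of them from decay. The markers cover these functions: lysozyme (Lyz2), lysosomal proteins (Cd68, Ctss, Gpnmb), the 3 chains of complement C1q (C1qa, C1qb, C1qc), an Fc receptor signalling chain (Fcer1g), a chemokine (Ccl7) and a small secreted protein of activated macrophages (Wfdc17).

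In these libraries the markers split by transcript rather than moving as a block. Gpnmb and Cd68 were higher in IGF2BP1 RIP than in input, by 1.58-fold and 2.09-fold. Wfdc17 and Ccl7 were lower, by 11.0-fold and 2.84-fold. Lyz2, the most abundant marker, stayed within 1.12-fold of input in IGF2BP1 RIP and within 1.16-fold in IgG RIP. Fcer1g and Ccl7 were highest in the IgG libraries, at 2.94 and 2.14 times their input level.

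The stretches of genome just before the starts of 4 markers are shown. C1qb and C1qc had their highest levels in the IGF2BP1 libraries, and Fcer1g and Wfdc17 their lowest. Gpnmb and Cd68 were highest there as well, and Ctss and Ccl7 lowest. Fcer1g and Wfdc17 were otherwise unlike, as Fcer1g was highest in IgG RIP and Wfdc17 in input. Sequences are from RefSeq (GRCm38.p6), 250 bases each, 5′ to 3′ on the gene's own strand, ending at the base before the start used in the promoter table. For C1qc that start lies inside the gene, so that 22 bases of its window fall within the RefSeq gene and 151 within the span of the deposited table. The windows of Fcer1g and Wfdc17 reach 16 and 66 bases into the deposited spans but not into the RefSeq genes. Capitals mark the letters GAGGAA or, on the other strand, TTCCTC, the core letters bound by PU.1, the transcription factor encoded by Spi1 that drives myeloid genes. C1qb is at chr4:136886201-136886450 (minus strand), C1qc at chr4:136892915-136893164 (minus strand), Fcer1g at chr1:171234350-171234599 (minus strand) and Wfdc17 at chr11:83703806-83704055 (plus strand).
C1qb: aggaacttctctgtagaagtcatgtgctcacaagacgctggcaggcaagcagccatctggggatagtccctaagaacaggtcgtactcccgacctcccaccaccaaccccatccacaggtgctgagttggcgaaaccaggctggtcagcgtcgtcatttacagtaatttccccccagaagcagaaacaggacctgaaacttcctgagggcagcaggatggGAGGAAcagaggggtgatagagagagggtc
C1qc: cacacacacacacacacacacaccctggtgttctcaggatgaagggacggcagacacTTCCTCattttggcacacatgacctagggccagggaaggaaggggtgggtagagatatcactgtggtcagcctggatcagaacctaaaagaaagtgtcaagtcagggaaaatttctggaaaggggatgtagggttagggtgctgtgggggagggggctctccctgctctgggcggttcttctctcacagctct
Fcer1g: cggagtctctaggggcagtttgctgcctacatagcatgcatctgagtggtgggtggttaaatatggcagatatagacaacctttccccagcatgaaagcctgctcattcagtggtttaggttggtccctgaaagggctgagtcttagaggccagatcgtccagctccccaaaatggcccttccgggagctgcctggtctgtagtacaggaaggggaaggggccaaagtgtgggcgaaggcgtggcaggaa
Wfdc17: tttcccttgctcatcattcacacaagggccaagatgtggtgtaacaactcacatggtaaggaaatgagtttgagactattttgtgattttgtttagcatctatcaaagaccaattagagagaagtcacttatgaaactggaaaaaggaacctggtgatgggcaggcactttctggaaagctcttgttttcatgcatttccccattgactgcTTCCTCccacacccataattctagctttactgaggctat

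Of the 8 markers with an entry among these promoters, 5 held the motif in the 250 bases, against 23.3% of 32851 promoters in the table. Counted from the start in the promoter table, it lay 30 bases before C1qb, 39 before Wfdc17, 164 before Ctss, 193 before C1qc and 225 before Cd68, on the opposite strand in C1qc and Wfdc17. The windows of Lyz2, Fcer1g and Gpnmb did not hold these letters. The motif was present both in C1qb and C1qc, which had their highest levels in the IGF2BP1 libraries, and in Wfdc17, which had its lowest. C1qa and Ccl7 have no entry.

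**Figure D1:**
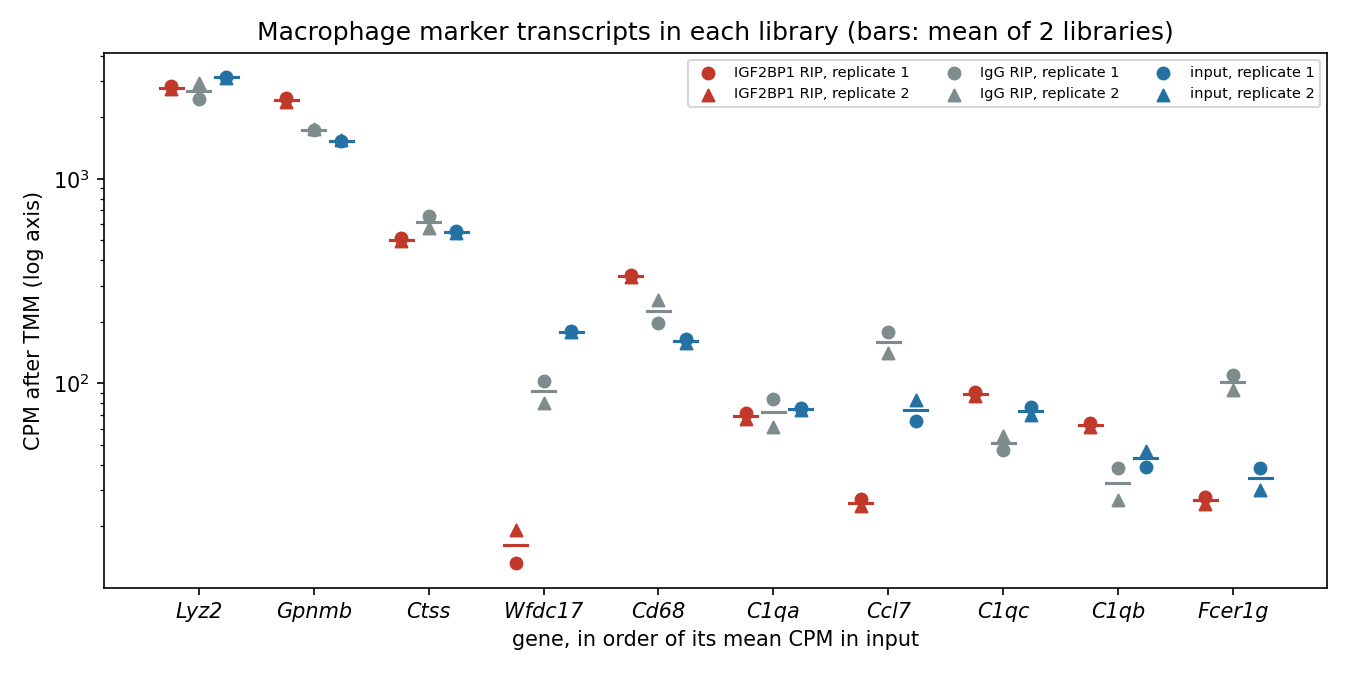
Level of each of the 10 markers in each of the 6 libraries, in CPM after TMM scaling on a log axis, with genes ordered by their mean in input and a bar at the mean of the 2 libraries of a group. Lyz2 and Gpnmb are above 1000 CPM in all 6 libraries, and Wfdc17 falls to 13.2 and 19.1 CPM in the IGF2BP1 libraries, against 179.2 and 177.1 CPM in the input libraries.

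Levels are given as CPM, each gene's fragments scaled to a common library size (TMM), which may be compared between libraries for one gene. Lyz2 (ENSMUSG00000069516, GRCm38 chr10:117277333-117282274) encodes lysozyme M, the enzyme that breaks bacterial cell walls. It stood at 2843.6 and 2744.0 CPM in the IGF2BP1 libraries, 2452.3 and 2929.1 CPM in the IgG libraries, and 3136.7 and 3123.2 CPM in the input libraries. The 2 IgG libraries lay on either side of both IGF2BP1 libraries, and all 4 pull-down libraries were below both input libraries. The log2 fold change was 0.05 ± 0.08 (SE) for IGF2BP1 RIP over IgG RIP and -0.16 ± 0.08 for IGF2BP1 RIP over input, the second with an adjusted p of 0.325 (edgeR quasi-likelihood test). In a model without the IgG libraries this small difference passed the threshold of 0.05 (log2 fold change -0.17, adjusted p = 0.00159).

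Gpnmb (ENSMUSG00000029816, chr6:49036517-49058182) encodes a transmembrane glycoprotein of lysosome-rich macrophages that is also made by melanocytes and osteoclasts. Its level was 2491.5 and 2365.8 CPM in the IGF2BP1 libraries, 1733.7 and 1742.7 CPM in the IgG libraries, and 1529.9 and 1545.9 CPM in the input libraries. The 3 groups did not overlap and the libraries within each were close. Gpnmb was 1.58-fold higher in IGF2BP1 RIP than in input (log2 fold change 0.66 ± 0.06 SE, adjusted p = 0.00203, edgeR), and its log2 fold change over IgG RIP was 0.48 ± 0.06. The call over input was lost without input replicate 1 (adjusted p = 0.0664) or input replicate 2 (adjusted p = 0.0568).

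Cd68 (ENSMUSG00000018774, chr11:69664212-69666153) encodes macrosialin, a heavily glycosylated protein of the lysosomal membrane that is a standard stain for macrophages. It was measured at 338.6 and 332.6 CPM in the IGF2BP1 libraries, 197.9 and 254.2 CPM in the IgG libraries, and 164.3 and 157.0 CPM in the input libraries. Again the groups did not overlap, with the IGF2BP1 libraries on top and the IgG libraries between. Cd68 was 2.09-fold higher in IGF2BP1 RIP than in input (log2 fold change 1.06 ± 0.14 SE, adjusted p = 0.00689, edgeR). Over IgG RIP its log2 fold change was 0.57 ± 0.13. The adjusted p over input was 0.101 and 0.0902 without IGF2BP1 replicate 1 or 2, and 0.122 and 0.136 without input replicate 1 or 2, while the log2 fold change stayed between 1.04 and 1.10.

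Ctss (ENSMUSG00000038642) encodes cathepsin S, the lysosomal protease that trims the invariant chain during antigen presentation. It had 510.8 and 493.6 CPM in the IGF2BP1 libraries, 661.2 and 573.8 CPM in the IgG libraries, and 553.8 and 544.9 CPM in the input libraries. The IGF2BP1 libraries were the lowest of the 3 groups and the IgG libraries the highest, all within a narrow range. The log2 fold change was -0.13 ± 0.09 (SE) over input (adjusted p = 0.503, edgeR) and -0.30 ± 0.09 over IgG RIP. The table gives Ctss a locus of chr3:94912542-95725658 that it shares, start and end, with another 32 genes including Ctsk, the gene of cathepsin K, while RefSeq places Ctss itself at chr3:95526786-95556405. How fragments were divided among genes of one span is uncertain.

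The 3 C1q genes lie side by side within 18.7 kb on chromosome 4, and their protein chains A, B and C assemble together into the molecule that starts the classical complement pathway. C1qb (ENSMUSG00000036905, chr4:136880128-136886187) had 64.0 and 61.1 CPM in the IGF2BP1 libraries, 38.4 and 26.9 CPM in the IgG libraries, and 39.1 and 46.8 CPM in the input libraries. C1qc (ENSMUSG00000036896, chr4:136889803-136893065) had 90.7 and 86.2 CPM in the IGF2BP1 libraries, 47.3 and 54.9 CPM in the IgG libraries, and 76.9 and 69.9 CPM in the input libraries. In both genes each IGF2BP1 library was above every control library. C1qa (ENSMUSG00000036887, chr4:136895916-136898803) had 71.5 and 66.7 CPM in the IGF2BP1 libraries, 83.4 and 60.9 CPM in the IgG libraries, and 75.7 and 74.0 CPM in the input libraries, so that its IGF2BP1 libraries lay between the 2 IgG libraries.

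The log2 fold change over IgG RIP was 0.94 ± 0.24 (SE) for C1qb, 0.79 ± 0.18 for C1qc and -0.06 ± 0.20 for C1qa. Over input it was 0.54 ± 0.25, 0.27 ± 0.18 and -0.11 ± 0.20 for C1qb, C1qc and C1qa, and none passed the test (adjusted p = 0.275, 0.468 and 0.830, edgeR). C1qb did pass over input in the model without the IgG libraries (adjusted p = 0.0113), at the same size of difference (0.54). Of the fragments on the 3 C1q genes, C1qa took 31.6% (Wilson 95% interval 28.1 to 35.3) and 31.2% (27.6 to 35.0) in IGF2BP1 RIP. In IgG RIP the C1qa share was 49.3% (44.6 to 54.0) and 42.7% (37.8 to 47.7), and in input 39.5% (34.2 to 45.0) and 38.8% (33.7 to 44.2). The intervals cover counting error only and make no test between groups, since no molecular identifiers are named in the labels. Chain B took 28.3% and 28.5% in the IGF2BP1 libraries, 22.7% and 18.8% in the IgG libraries, and 20.4% and 24.5% in the input libraries.

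Fcer1g (ENSMUSG00000058715, chr1:171229571-171234365) encodes the common gamma chain through which several Fc receptors signal. Its level was 27.7 and 25.8 CPM in the IGF2BP1 libraries, 109.4 and 92.3 CPM in the IgG libraries, and 38.4 and 30.2 CPM in the input libraries. The IgG libraries were far above all others, and the IGF2BP1 libraries were below both input libraries by a small margin. The log2 fold change was -0.36 ± 0.23 (SE) for IGF2BP1 RIP over input (adjusted p = 0.459, edgeR), -1.91 ± 0.22 for IGF2BP1 RIP over IgG RIP, and 1.55 ± 0.22 for IgG RIP over input.

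Ccl7 (ENSMUSG00000035373) encodes a chemokine that draws monocytes through the receptor CCR2. It stood at 27.0 and 25.1 CPM in the IGF2BP1 libraries, 178.1 and 139.8 CPM in the IgG libraries, and 65.1 and 82.9 CPM in the input libraries. No library of one group reached the range of another, and the order ran from IGF2BP1 RIP through input to IgG RIP. Ccl7 was 2.84-fold lower in IGF2BP1 RIP than in input (log2 fold change -1.51 ± 0.22 SE, adjusted p = 0.0106, edgeR), with log2 fold changes of -2.61 ± 0.21 over IgG RIP and 1.10 ± 0.20 for IgG RIP over input. The call over input was lost without IGF2BP1 replicate 1 (adjusted p = 0.141) or 2 (0.148), and without input replicate 1 (0.0943) or 2 (0.162). In the table Ccl7 carries the span chr11:80880168-82871210, shared with another 13 genes, among them the chemokine genes Ccl1, Ccl2, Ccl8, Ccl11 and Ccl12, and RefSeq places Ccl7 at chr11:82045712-82047525. Its fragments are therefore open to wrong assignment among these neighbours.

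Wfdc17 (ENSMUSG00000069792, chr11:83703990-83706268) encodes a secreted protein with a whey acidic protein domain, known from activated mouse macrophages and microglia. It was measured at 13.2 and 19.1 CPM in the IGF2BP1 libraries, 102.8 and 79.6 CPM in the IgG libraries, and 179.2 and 177.1 CPM in the input libraries, from 37 and 54, 265 and 213, and 289 and 299 fragments. The groups did not overlap, and both pull-downs were below input, the IGF2BP1 libraries by far the most. Wfdc17 was 11.0-fold lower in IGF2BP1 RIP than in input (log2 fold change -3.46 ± 0.23 SE, adjusted p = 7.97e-04, edgeR), and it kept this call in 16 of 16 other settings. Its log2 fold change was -2.50 ± 0.23 over IgG RIP and -0.97 ± 0.20 for IgG RIP over input.

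**Figure D2:**
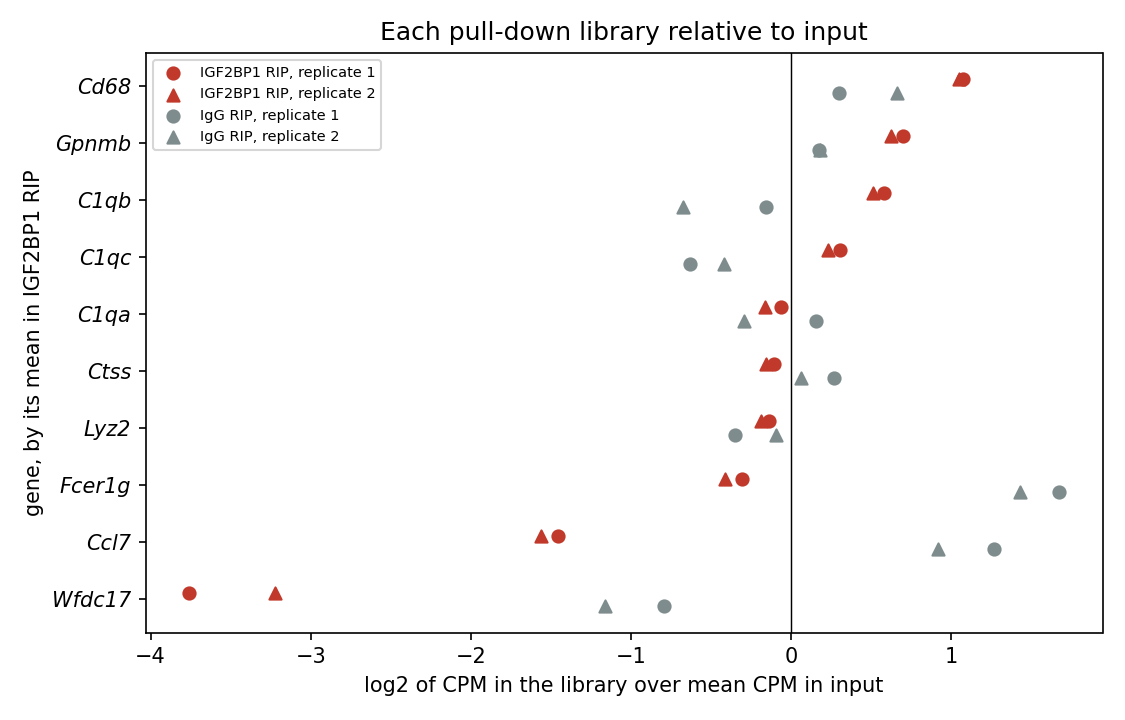
Log2 of the CPM of each marker in each pull-down library over its mean CPM in input, with the 2 IGF2BP1 libraries above the 2 IgG libraries in each row. Wfdc17 lies at -3.76 and -3.22 in the IGF2BP1 libraries and Cd68 at 1.08 and 1.05, while Fcer1g lies at -0.31 and -0.41 in the IGF2BP1 libraries and at 1.67 and 1.43 in the IgG libraries.

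Counted together, 4 of the 10 markers were above IgG RIP in both IGF2BP1 libraries, where 27.4% of the 12053 genes tested were, and 4 were below, where 24.7% were. Against input, 4 were above in both IGF2BP1 libraries and 6 below, where 33.5% and 33.4% of all genes were. By the quasi-likelihood test of edgeR, with p-values adjusted over all genes tested and called under 0.05, 2 markers, Gpnmb and Cd68, were called higher in IGF2BP1 RIP than in input, and 2, Wfdc17 and Ccl7, lower. Among all genes tested 2.21% were called higher and 3.76% lower. The comparison with input also shares its IGF2BP1 libraries with the comparison over IgG RIP. The median log2 fold change of the markers was 0.00 over IgG RIP and -0.12 over input, beside -0.01 and 0.00 for all genes tested.

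As a group the markers took a similar share of every library. Their summed level was 6478.7 and 6219.9 CPM in the IGF2BP1 libraries, 5604.6 and 5954.4 CPM in the IgG libraries, and 5859.2 and 5851.9 CPM in the input libraries. That is 0.652% and 0.621% of fragments in IGF2BP1 RIP, 0.565% and 0.585% in the IgG libraries, and 0.576% and 0.584% in the input libraries. Lyz2 and Gpnmb made up most of it, with 82.3% and 82.2% of the marker fragments in IGF2BP1 RIP, 74.7% and 78.5% in the IgG libraries, and 79.6% and 79.8% in the input libraries. For the level in input, a bulk sample, fewer macrophages and less of an RNA per macrophage cannot be told apart. These libraries do not show which cells the RNA of each marker came from.

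Levels of different genes were compared per length, with the deposited FPKM of each library rescaled to one common total. In input Lyz2 was highest, at 4989 ± 105 (SD, n = 2) rescaled FPKM, followed by Wfdc17 (878 ± 22.1), Ctss (809 ± 23.9), Gpnmb (734 ± 8.19), Cd68 (265 ± 13.4), Ccl7 (206 ± 31.5), C1qa (151 ± 5.01), C1qc (124 ± 10.6), Fcer1g (121 ± 22.6) and C1qb (81.8 ± 8.95). Of neighbours in this order, C1qc and Fcer1g had ranges (mean ± SD) that met, and the others did not. In IGF2BP1 RIP, Lyz2 stayed on top (5018 ± 355), followed by Gpnmb (1277 ± 107), Ctss (831 ± 57.9), Cd68 (625 ± 34.9), C1qc (169 ± 13.8), C1qa (158 ± 14.8), C1qb (135 ± 10.6), Fcer1g (110 ± 10.4), Wfdc17 (95.4 ± 21.0) and Ccl7 (84.1 ± 8.15). There the ranges of neighbours met among the C1q genes and among the last 3 genes, and nowhere else in the order. In IgG RIP Lyz2 (4591 ± 559) was followed by Ctss (974 ± 101) and Gpnmb (890 ± 2.68), whose ranges met. Next, Wfdc17 (479 ± 91.9), Ccl7 (475 ± 84.1), Cd68 (399 ± 68.1) and Fcer1g (379 ± 48.7) formed a middle block in which each overlapped the next, above C1qa (156 ± 35.0), C1qc (92.6 ± 9.39) and C1qb (66.7 ± 16.9), of which C1qc and C1qb had ranges that met.

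Wfdc17, Fcer1g and Ccl7, the markers with the most negative values over IgG RIP, have short transcripts. A length index, the ratio of a gene's deposited count to its FPKM set to 1 at the median gene, was 0.151 for Wfdc17, 0.211 for Fcer1g, 0.266 for Ccl7 and 0.369 for C1qa, which places these 4 in the shortest of 10 length classes of the genes tested. C1qb, C1qc, Cd68, Lyz2 and Ctss, with an index from 0.390 to 0.505, fell in the next class, and Gpnmb, at 1.56, in the eighth. Over all genes of the shortest class the median log2 fold change was -0.14 for IGF2BP1 RIP over IgG RIP and -0.53 over input, against 0.07 and -0.07 in the next class. Wfdc17 (-3.46), Ccl7 (-1.51), Fcer1g (-0.36) and C1qa (-0.11) over input lay on both sides of their class median. The part of length in these differences was not tested.

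**Figure D3:**
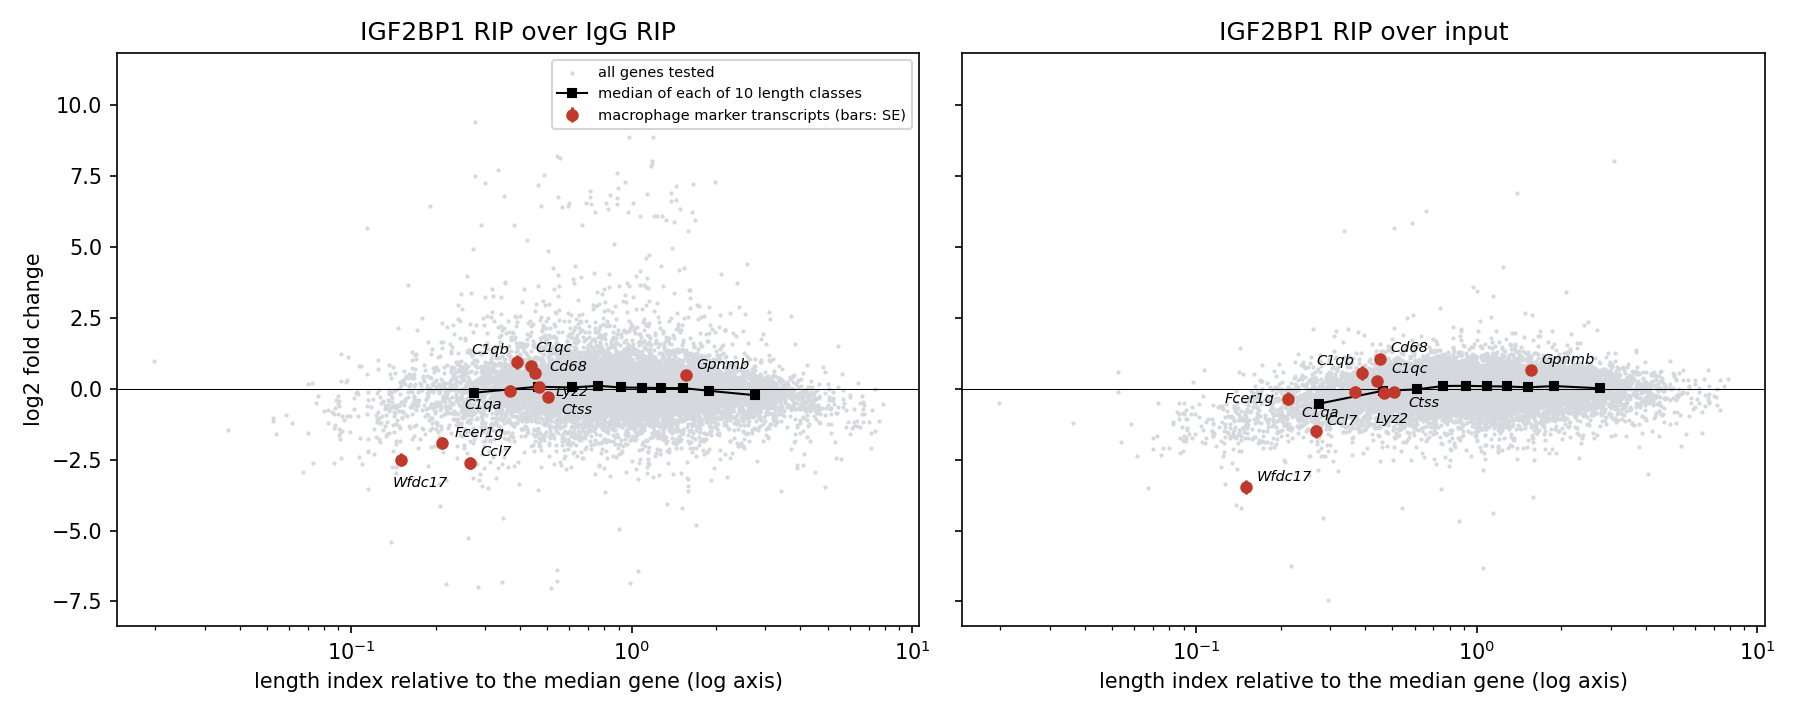
Log2 fold change of IGF2BP1 RIP over IgG RIP (left) and over input (right) against the length index on a log axis, with all 12053 genes tested in grey, the median of each of 10 length classes as black squares, and the 10 markers in red with their SE. Wfdc17, Fcer1g, Ccl7 and C1qa are in the shortest class, whose median is -0.14 over IgG RIP and -0.53 over input.

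Some marker pairs had nearly the same profile over the 6 libraries. Likeness was measured as the root mean square difference of log2 CPM after centring each gene on its own mean. C1qa and Ctss were closest (0.14), followed by Cd68 and Gpnmb (0.20), Lyz2 and C1qa (0.21), Lyz2 and Ctss (0.22), and C1qb and C1qc (0.26). Fcer1g and Ccl7, which like Ctss had their highest levels in IgG RIP, differed by 0.51, and Cd68 and Wfdc17 were farthest apart (1.91).

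Among the other genes with a mean of at least 10 CPM, the profile of Lyz2 was closest to those of Pik3r3 (0.031), Eif3m (0.035) and Diap3 (0.044). Closest to Gpnmb were Gle1 (0.043), Mcam (0.045) and Dact2 (0.050), and closest to Cd68 were Stil (0.060) and Sec24c (0.079). Ctss was matched by Dhx33 (0.030), Otud4 (0.032) and Ppp1r12a (0.042). The C1q genes had Zmym5, Fchsd2 and Slc25a44 next to C1qa (0.027 to 0.047), Terf2ip, Rab6b and Slain2 next to C1qb (0.081 to 0.092), and Eif6, Kpna2 and Cadm1 next to C1qc (0.064 to 0.069). Ryr2, Tmem44 and Dennd3 were nearest to Fcer1g (0.13 to 0.19), and Dpm1, Ttn and Hist1h3f nearest to Ccl7 (0.21 to 0.27).

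Wfdc17 had the loosest matches, Tmsb4x (0.27), mt-Nd6 (0.42) and Rps27l (0.46), beside a median difference of 1.53 to all such genes. Tmsb4x, which encodes the actin-binding peptide thymosin beta 4, had 37.0 and 36.0 CPM in the IGF2BP1 libraries, 165.3 and 146.5 CPM in the IgG libraries, and 298.3 and 303.3 CPM in the input libraries. Like Wfdc17 it was lowest in IGF2BP1 RIP, highest in input and between them in IgG RIP. None of the 30 nearest genes is on the macrophage lists described next.

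Other genes of the macrophage were taken from lists for cell identity, lysosome and phagocytosis, chemokines and cytokines, complement, and whey acidic protein domains. They hold 148 genes of the table, of which 114 were tested. In IGF2BP1 RIP against IgG RIP, 1 of these 114 was called higher and 9 lower (edgeR), where 3.29% and 3.78% of all genes were. In IGF2BP1 RIP against input 1 was higher and 10 lower, where 2.21% and 3.76% of all genes were. In IgG RIP against input 3 were higher and 9 lower, where 4.19% and 4.9% of all genes were. These counts moved with single libraries. Over IgG RIP they were 26 higher and 29 lower without IgG replicate 1, 24 and 30 without IgG replicate 2, 0 and 3 without either IGF2BP1 library, and 1 and 5 without either input library. Over input they were 6 and 36 without IgG replicate 1, 6 and 34 without IgG replicate 2, 0 and 2 without IGF2BP1 replicate 1, 0 and 3 without IGF2BP1 replicate 2, and 0 and 2 without either input library. For IgG RIP over input they were 15 and 34 without IgG replicate 1, 18 and 36 without IgG replicate 2, 1 and 6 or 1 and 5 without IGF2BP1 replicate 1 or 2, and 0 and 0 without either input library, where edgeR gave 4 and 12 or 3 and 13 at an unadjusted p under 0.05.

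**Figure D4:**
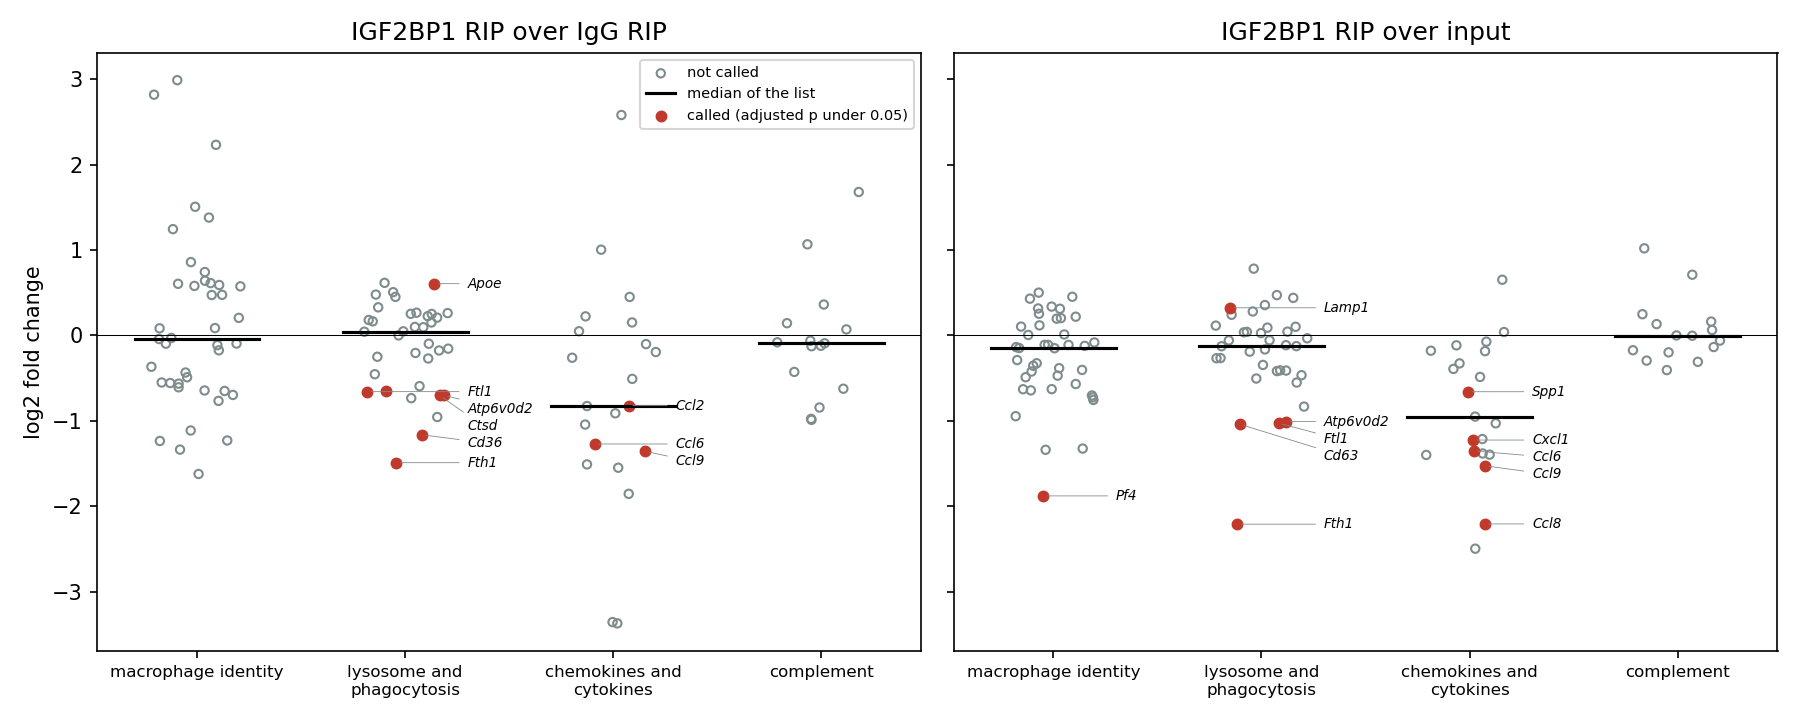
Log2 fold change of IGF2BP1 RIP over IgG RIP (left) and over input (right) for the tested genes of 4 macrophage lists, with a point per gene, filled where called at an adjusted p under 0.05, names for up to 5 called genes per list and direction, and a bar at the median of each list. The chemokine list has the lowest median, -0.82 over IgG RIP and -0.95 over input.

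The chemokine and cytokine list had the lowest median of the lists plotted by macrophage function. Of its 21 tested genes, 3 were lower in the IGF2BP1 than in the IgG libraries and 5 lower than in input, where 3.78% and 3.76% of all genes were, none was called higher in either (edgeR), and 1 and 1 were higher at an unadjusted p under 0.05, with 0 and 0 called higher by DESeq2. Among all 12053 genes tested, 3.29% and 2.21% were called higher (edgeR), and 1477 and 1166 were higher at an unadjusted p under 0.05. DESeq2 called 356 and 348 of all genes higher. The median log2 fold change of the list was -0.82 over IgG RIP and -0.95 over input. Over all genes of the shortest length class, which holds Ccl3 (length index 0.251) and Ccl8 (0.141), the medians were -0.14 and -0.53. The part of length in the values of the list was not tested. Ccl6, an abundant chemokine of mouse myeloid cells, had 787.5 and 865.5 CPM in the IGF2BP1 libraries, 1691.0 and 2298.9 CPM in the IgG libraries, and 2120.9 and 2100.3 CPM in the input libraries. It was lower than in both controls (log2 fold change -1.27 ± 0.13 SE over IgG RIP, adjusted p = 0.00392, and -1.35 ± 0.14 over input, adjusted p = 0.00309, edgeR). The related Ccl9 was also lower than in both (-1.36 and -1.53, adjusted p = 0.0228 and 0.0161, edgeR). Over IgG RIP the direction of Ccl9 turned in limma, to 0.39 on log2(FPKM + 1), 0.36 centred and 0.37 centred with a pseudocount of 0.1. With only the 2 groups compared its call over IgG RIP was lost (adjusted p = 0.102, edgeR). Over input limma gave -0.17, -0.90 and -0.98 with no call (adjusted p = 0.567, 0.137 and 0.135).

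Ccl2, which like Ccl7 binds CCR2 and shares its span in the table, was lower in the IGF2BP1 than in the IgG libraries (-0.82) and had a log2 fold change of -0.33 over input that did not pass (adjusted p = 0.203). The call of Ccl2 over IgG RIP (adjusted p = 0.0134, edgeR) was lost with only the 2 groups compared (0.0608, edgeR) and in limma on FPKM (0.0686 to 0.0827). Ccl8 (-2.21), Cxcl1 (-1.23) and Spp1, the gene of osteopontin (-0.66), were lower than in input. Limma on FPKM did not call Spp1 over input (adjusted p = 0.0738 to 0.263), and on log2(FPKM + 1) its log2 fold change was 0.19. Cxcl1 was called over input by limma on centred values (adjusted p = 0.0418 and 0.0361) but not on log2(FPKM + 1) (0.0984). For Ccl8, DESeq2 gave no adjusted p over input, and the edgeR call was lost without any single IGF2BP1 or input library (adjusted p = 0.224 to 0.316). Ccl8 and Spp1 share their spans with other genes. Most of the CC chemokine genes of chromosome 11 had negative values over IgG RIP: Ccl12 (-1.86), Ccl8 (-1.51), Ccl3 (-1.04) and Ccl4 (-3.36) were not called, and Ccl11 (-0.20) was close to 0. Wfdc17 lies in the same stretch, 131 kb from Ccl9, 116 kb from Ccl6 and 55.4 kb from Ccl4 by start position in RefSeq, and 1658 kb from Ccl7. Of the other genes with a whey acidic protein domain, 1 of 14 was expressed enough to test, Slpi, a protease inhibitor, at 10.3 ± 1.95 CPM in IGF2BP1 RIP, 3.59 ± 1.79 in IgG RIP and 13.9 ± 2.12 in input (SD, n = 2). It was not called in any comparison.

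All 36 genes of the lysosome and phagocytosis list were tested. Against IgG RIP, 6 were lower in IGF2BP1 RIP and 1 was higher, where 3.78% and 3.29% of all genes were. Against input 4 were lower and 1 higher, where 3.76% and 2.21% of all genes were. The strongest change was in Fth1, the heavy chain of the iron store ferritin, with 453.8 and 453.4 CPM in the IGF2BP1 libraries, 1191.6 and 1357.3 CPM in the IgG libraries, and 2101.1 and 2097.3 CPM in the input libraries (log2 fold change -1.49 ± 0.08 SE over IgG RIP and -2.21 ± 0.08 over input). Ftl1, the ferritin light chain, was also lower than in both controls (-0.66 and -1.03). Atp6v0d2, a subunit of the proton pump that acidifies lysosomes, was too (-0.70 and -1.01, adjusted p = 0.0496 and 0.0175, edgeR). Its call over IgG RIP was lost in edgeR without the filter on low counts (adjusted p = 0.0688), with the replicate block (0.0547) and with only the 2 groups compared (0.148). Limma on FPKM called Atp6v0d2 in neither comparison. Its log2 fold change over IgG RIP was -0.92 and -0.42 without IgG replicate 1 or 2. Ferritin genes are expressed by nearly all cells. Fth1 and Ftl1 (length index 0.294 and 0.337) were in the shortest length class, whose medians were -0.14 over IgG RIP and -0.53 over input. Atp6v0d2 (1.02) was in length class 6, and the part of length was not tested.

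The fatty acid receptor Cd36 (-1.16) and the protease Ctsd (-0.70) were lower than in IgG RIP, and the tetraspanin Cd63 (-1.04) was lower than in input. Limma on FPKM gave Cd36 over IgG RIP an adjusted p of 0.0479 to 0.0515. Limma did not call Ctsd over IgG RIP (adjusted p = 0.0575 to 0.0593) or Cd63 over input (0.0741 to 0.469). Cd63 (length index 0.308) was in the shortest length class, Ctsd (0.838) in class 5 and Cd36 (1.45) in class 8. In the other direction Apoe, the lipid carrier secreted by macrophages, was higher in IGF2BP1 RIP than in IgG RIP (0.61 ± 0.07 SE, adjusted p = 0.00595, edgeR), and Lamp1, a major protein of the lysosomal membrane, higher than in input (0.32 ± 0.07, adjusted p = 0.0325). The Lamp1 call was lost with the replicate block (adjusted p = 0.0564, edgeR). It was also lost in limma on centred log2(FPKM + 1) (0.117) and with a pseudocount of 0.1 (0.166). With 1 library left out its log2 fold change over input stayed between 0.30 and 0.36. Lamp1 belongs to the same protein family as Cd68. The lysosome list had a median of 0.05 over IgG RIP and -0.12 over input. Cd36 (0.61) and Ctsd (0.58) were higher in IgG RIP than in input, and Cd63 (-1.52), Lgals3 (-0.92), Fth1 (-0.72), Apoe (-0.64) and Ftl1 (-0.37) lower.

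The list of identity genes, receptors and regulators that define the macrophage, had 41 tested genes. None was called between IGF2BP1 RIP and IgG RIP (edgeR), where 3.29% and 3.78% of all genes were called higher and lower. At an unadjusted p under 0.05, 4 were higher and 4 lower, beside 1477 and 1568 of all 12053 genes tested. DESeq2 called 0 higher and 1 lower, beside 356 and 458 of all genes. Against input, Pf4, the gene of platelet factor 4, was lower in IGF2BP1 RIP (log2 fold change -1.88 ± 0.27 SE, adjusted p = 0.0111, edgeR) and the other 40 were not called. DESeq2 gave Pf4 no adjusted p in this comparison and called 0 higher and 0 lower in the list. The edgeR call was lost without IGF2BP1 replicate 1 (adjusted p = 0.191) or 2 (0.138) and without input replicate 1 (0.123) or 2 (0.202). Pf4 (-1.31) and the scavenger receptor Msr1 (-1.27) were lower in IgG RIP than in input. Pf4 (length index 0.174) was in the shortest length class and Msr1 (0.919) in class 5. Over input the median of the shortest class was -0.53 for IGF2BP1 RIP and -0.37 for IgG RIP. The part of length was not tested. Of 15 tested complement genes, none was called between IGF2BP1 RIP and either control (edgeR). At an unadjusted p under 0.05, 1 was higher and 1 lower over IgG RIP, and 1 higher and 0 lower over input. Over all genes tested those counts were 1477 and 1568 over IgG RIP, and 1166 and 1339 over input. By DESeq2 the complement counts were 0 and 0 over IgG RIP and 1 and 0 over input. Serping1, the inhibitor of C1, was higher in IgG RIP than in input (1.11, adjusted p = 0.0348, edgeR), where 4.19% of all genes were called higher. That call was lost with only the 2 groups compared (adjusted p = 0.102, edgeR). It was also lost in limma on centred log2(FPKM + 1) (0.116) and with a pseudocount of 0.1 (0.129).

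The macrophage label was checked against identity genes outside the 10 markers. In both input libraries 45 of 48 had at least 1 fragment and 40 had more than 3, and Timd4 was at 0 in all 6 libraries. Of all 22564 genes, 15047 and 15089 had at least 1 fragment in input replicate 1 and 2. Cd163, a scavenger receptor of resident macrophages, had 0 and 1 fragments in the input libraries, F13a1 4 and 0, and Cx3cr1, the fractalkine receptor, 2 and 5. Defining genes present in input included Mrc1, the mannose receptor, at 284.7 ± 12.2 CPM (SD, n = 2), the pore-forming Mpeg1 at 208.4 ± 19.2 CPM and Itgam, an integrin, at 71.9 and 85.3 CPM. Adgre1, the F4/80 antigen listed as Emr1 in the table, had 63.3 and 58.0 CPM in the input libraries and Ptprc, the leukocyte antigen CD45, 20.5 and 21.3 CPM. Csf1r, the receptor for the macrophage growth factor, had 8.9 and 6.0 CPM in the IGF2BP1 libraries, 0 and 46.0 CPM in the IgG libraries, and 16.1 and 21.3 CPM in the input libraries. Its 0 in IgG replicate 1 allows up to 1.16 CPM, the level of 3 fragments. Aif1, a common macrophage stain, was near 0 in input (0.6 CPM, or 1 fragment, in each library).

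Lists for other cells gave the following summed levels. The 23 germ stem cell genes, all detected in both input libraries, summed to 6040 and 6157 CPM in the IGF2BP1 libraries, 5435 and 5151 CPM in the IgG libraries, and 5813 and 5528 CPM in the input libraries, with Dazl, a germ cell RNA-binding protein gene, taking the most fragments of them in input (1158 ± 41.1 CPM). The 18 fibroblast genes, also all detected, summed to 5874 and 5698 CPM in the IGF2BP1 libraries, 5777 and 6503 CPM in the IgG libraries, and 5756 and 5640 CPM in the input libraries, led by Fn1, Vim and Col1a1. The 48 macrophage identity genes summed to 1670 and 1577 CPM in the IGF2BP1 libraries, 1814 and 1653 CPM in the IgG libraries, and 1969 and 1956 CPM in the input libraries. Thy1 is on both the germ stem cell and the fibroblast list.

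Genes of lymphocytes, granulocytes and mast cells were at or near 0. The T, B and NK cell list summed to 7.11 and 6.36 CPM in the IGF2BP1 libraries, 0 and 2.99 CPM in the IgG libraries, and 11.2 and 7.11 CPM in the input libraries, with Cd79b, Nkg7 and Gzmb at 0 in all libraries. The neutrophil and mast cell list reached at most 4.34 CPM, and Ly6g, S100a9, Elane, Ltf and Tpsb2 were at 0 throughout. These values bear on Lyz2 and Fcer1g, which neutrophils and mast cells also express. The erythroid and endothelial list had 32.4 and 31.1 CPM in the IGF2BP1 libraries, 9.31 and 37.0 CPM in the IgG libraries, and 27.9 and 45.0 CPM in the input libraries, with all 4 globin genes at 0. The osteoclast and melanocyte list covers other cells that make Gpnmb. It had 77.2 and 66.7 CPM in the IGF2BP1 libraries, 76.1 and 56.4 in the IgG libraries, and 48.4 and 48.0 in input. Most of it was Mmp9, and Dcstamp, Oscar, Tyr and Mlana were at 0. Pmel took 12 fragments in each IGF2BP1 library, 0 in each IgG library, and 1 and 2 in input. Sox10 took 8 in each IGF2BP1 library, 2 and 0 with IgG, and 1 and 2 in input. Acp5, Ctsk and Atp6v0d2 were placed in the lysosome list and are not in this sum. Whether osteoclasts or melanocytes added to the Gpnmb level was not tested. The Sertoli and Leydig list had 42.0 and 44.5 CPM in the IGF2BP1 libraries, 57.0 and 54.2 CPM in the IgG libraries, and 49.6 and 37.9 CPM in the input libraries, mostly Sox9, with Cyp11a1, Amh and Cldn11 at 0.

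**Figure D5:**
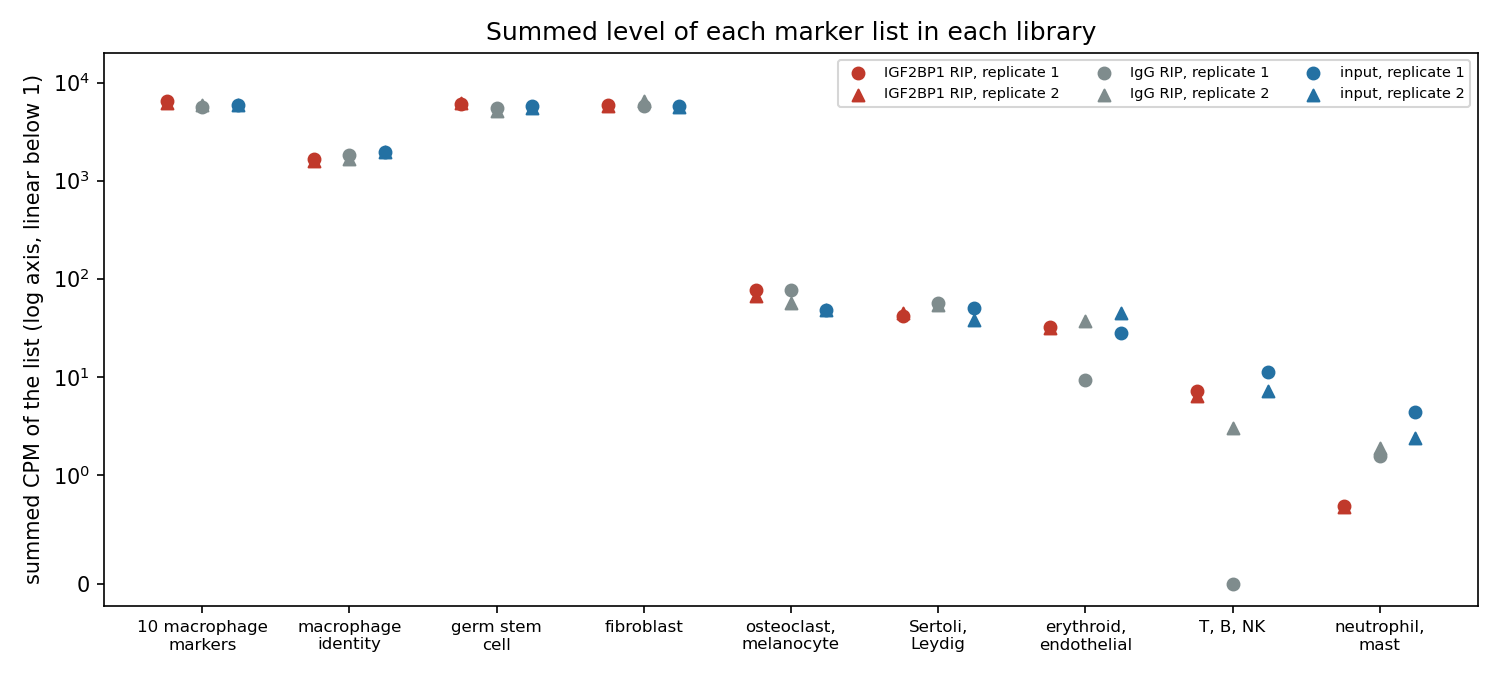
Summed CPM of the 10 markers and of 8 lists of cell type genes in each library, on an axis that is logarithmic above 1 and linear below. The markers, germ stem cell and fibroblast lists lie between 5151 and 6503 CPM in every library, and the T, B and NK and the neutrophil and mast lists at or below 11.2 CPM.

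The 2 IgG libraries were given apart because they differ from each other. Between them, none of the 10 markers differed by more than 2-fold, while 3330 of the 12053 genes tested (27.6%) did. The ratio of IgG replicate 1 to IgG replicate 2 ran from 0.779 in Cd68 to 1.43 in C1qb. Of the 41 identity genes, 15 differed by more than 2-fold between the IgG libraries, 2 between the IGF2BP1 libraries and 2 between the input libraries. The markers have higher levels than most identity genes, and the part of level in this contrast was not tested. Csf1r and the pattern receptor gene Clec4e, at 19.0 and 0 CPM in the IgG libraries (a 0 that allows up to 1.12 CPM), were at 0 in opposite IgG libraries, and Il1b, an inflammatory cytokine gene, stood at 31.8 and 2.2 CPM there. These 3 genes were picked after their values were seen.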

How the data were processed

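RNA from 6 RIP-seq and input libraries was analysed from 1 deposited table. Its count columns, as made by the authors, are estimated counts per gene, each multiplied by a factor per library. Between 91.9% and 93.0% of values above 0 are whole multiples of a single step (tolerance 0.01), which was divided out before rounding to fragments. The deposited FPKM values were not scaled to depth as far as their totals show, and served for length and as an alternative. The submitters' processing notes name build mm39, cutadapt 1.9.3 and FastQC. The aligner is not given in the sources used here, nor is the counter. Coordinates come from the file and were taken to be GRCm38 because 99.909% of 20874 genes matched by gene number overlap their GRCm38 position. Promoters are from RefSeq. Of the genes, 5875 share an identical span with another gene.

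The quasi-likelihood test of edgeR 4.0.16 (R 4.3.3) was run on the fragments after filterByExpr and TMM, in 1 model of all 6 libraries with 3 residual degrees of freedom. P-values were Benjamini-Hochberg adjusted over 12053 genes and called under 0.05. SE is the absolute log2 fold change over the square root of F. Alternatives used DESeq2 1.42.0 and limma 3.58.1 on log2(FPKM + 1) and log2(FPKM + 0.1), other filters and normalization, 2 groups alone, a replicate block and each library left out. Wilson intervals used a level of 95%. The test was tried on simulated data with the same spread in all groups, for IGF2BP1 RIP over input. That trial does not cover the wider spread between the IgG libraries. Markers and lists were chosen with earlier results of these data known. The rule named all 10 markers, up to 5 called genes per macrophage list, direction and comparison, the 3 nearest profiles per marker and the 3 highest genes of other lists. Identity genes from the marker list and further chromosome 11 chemokines were named outside it, as single values shown for context. Some genes that the rule or the counts cover are not reported here.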

Additional observations from a re-analysis of the deposited data

How the results depend on the processing

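Counts of called genes are given as higher and lower, for IGF2BP1 RIP over IgG RIP, IGF2BP1 RIP over input, and IgG RIP over input in turn. Over all genes they were 396 and 456, 266 and 453, and 505 and 591. With only the 2 groups compared they were 37 and 107, 1925 and 2169, and 124 and 137. The replicate numbers are only names here, as same-numbered libraries did not deviate together (r of -0.0019, -0.0010 and 0.0146 across genes). With the replicate number as a block the counts were 253 and 342, 179 and 366, and 369 and 454, and no marker's call over input changed. Limma on log2(FPKM + 1) gave 229 and 134, 3248 and 69, and 2870 and 144, where the median of all genes lay 0.11, 0.68 and 0.56 above 0. Centred, it gave 168 and 135, 15 and 75, and 121 and 312, and with a pseudocount of 0.1, 170 and 117, 10 and 93, and 98 and 311. Leaving out 1 library each gave 10 to 3100 and 39 to 2827, 1 to 1957 and 16 to 2073, and 0 to 2675 and 0 to 3140. The count of 0 arose without either input library, where 806 and 907 or 797 and 936 genes had an unadjusted p under 0.05. The higher ends arose without an IgG library.

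For the 114 other macrophage genes the counts were 1 and 9, 1 and 10, and 3 and 9. They were 1 and 5, 6 and 37, and 1 and 6 with only the 2 groups, and 3 and 3, 29 and 3, and 24 and 4 on log2(FPKM + 1). On centred values they were 3 and 3, 0 and 5, and 0 and 10, with a pseudocount of 0.1 3 and 2, 0 and 5, and 0 and 9. DESeq2 and the stricter filter each called 2 higher in the first 2 comparisons, and the block 0 higher over input. Leaving out 1 library gave 0 to 26 and 3 to 30, 0 to 6 and 2 to 36, and 0 to 18 and 0 to 36.

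Of the markers over input, Wfdc17 kept its call in 16 of 16 settings, Gpnmb in 14, Cd68 in 12 and Ccl7 in 9. Ccl7 also lost it on log2(FPKM + 1) and, centred, with pseudocounts of 1 and 0.1 (log2 fold change -0.60, -1.32 and -1.41, adjusted p = 0.0687, 0.0563 and 0.0503, limma). On uncentred log2(FPKM + 1) the direction over input turned in Lyz2 (0.68), C1qa (0.73), Fcer1g (0.54) and Ctss (0.71), about the shift of the median gene, and C1qa turned to 0.0050 on centred values. Depth limits Wfdc17 most, at 37 fragments in IGF2BP1 replicate 1.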
